A study of Mus musculus with 12 samples.

Results

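Expression of 8 genes known from B cells, Ms4a1, Gcsam, Fcrla, Cd22, Ighm, Cd79a, Cd79b and Blnk, was followed in mouse monocytes. They are 8 of the 55487 genes in the count table and were found there by symbol. The 8 were selected on their KO and WT levels in these same libraries, together with their known place in B cells, so every value that sets KO or WT libraries against others is given for them as a description with no test. The comparison of bone marrow with Mixed libraries sets no KO or WT level against another and is the one in which they were tested. Its estimate of spread and its filter on low counts still came from all 12 libraries. In short, Ms4a1 and Gcsam stood near the limit of counting in fetal liver WT and Mixed monocytes and above 58 CPM (counts per 1e+06 counts, on TMM-scaled library sizes) in every KO library, Fcrla, Cd22, Ighm and Blnk were higher in KO by smaller factors, and of the pair of genes for the receptor's signalling chains, Cd79b was lower in KO and Cd79a was at a level near that in WT.

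A B cell senses antigen with a receptor made of a membrane immunoglobulin, whose heavy chain on naive cells is the mu chain from Ighm, held in a complex with a heterodimer of the CD79A and CD79B proteins. The immunoglobulin binds the antigen, and the CD79 tails carry the tyrosine motifs (ITAMs) that the kinases LYN and SYK phosphorylate and read. BLNK (SLP-65) is the adaptor that then brings BTK and phospholipase C gamma 2 together. CD22 is an inhibitory co-receptor of the sialic acid-binding Siglec family, CD20 from Ms4a1 is a membrane protein of mature B cells, GCSAM is a signalling adaptor of germinal centre B cells, and FCRLA is an intracellular Fc receptor-like protein that binds immunoglobulins in B cells.

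Bulk RNA-seq was made from Ly6C+ monocytes in 4 groups of 3 libraries. The KO group was E13.5 fetal liver with the genotype label KO, the WT group was fetal liver with the genotype label WT, E13.5 for WT 1 and E15.5 for WT 2 and WT 3 (embryonic day), the Mixed group was E15.5 fetal liver that also carries the genotype label WT, and the BM group was bone marrow with the genotype label WT and no age. In the title the series names cMaf and Zeb2, and the text on its design mentions a mouse line, Z165KO. The sources used here do not give the allele of the KO group, the meaning of "Mixed", the sort markers beyond Ly6C or the number of animals behind a library. No label says whether libraries of the same group are from different animals, and p-values then measure only how these samples spread, which may be technical spread. In bulk RNA, fewer cells of a type and less RNA per cell cannot be told apart.

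Libraries held 17384911 to 24473471 counts. Zeb2, which encodes a zinc-finger repressor, was at 23.8, 20.1 and 22.5 CPM in KO and 141 to 165 CPM in WT, 6.75-fold lower in KO (adjusted p = 3.95e-17, edgeR's quasi-likelihood test); part of its count is uncertain because Zeb2os lies on the opposite strand and the kit does not mark strand. Maf, the gene of cMaf, was at 9.99 ± 2.44 CPM in KO and 13.65 ± 1.43 CPM in WT. It was 1.36-fold lower in KO and not called (adjusted p = 0.0549, same test). Library profiles correlated at 0.9843 to 0.9885 within groups and 0.9534 to 0.9563 between KO and WT. BM 1 had 24422 genes with a count, against 19649 to 21046 in the other 11 libraries. Levels of 11 classical monocyte markers are given as a description. All 11 had counts in every group, and their sum was 8074 to 9158 CPM in KO libraries, 11190 to 12650 in WT, 14690 to 14820 in Mixed and 35350 to 35960 in BM. Lyz2, named after its value was seen, alone averaged 4273 CPM in KO and 21890 in BM. Between KO and WT 4 of the 11 were higher and 6 lower in KO, against 18.2% and 19.9% of all genes. The sum therefore does not establish the identity of the cells.

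The sequences just upstream of the genes are shown because the question here is which of them moved together, and because Zeb2, the repressor named in the title, is known to bind E-box letters of the form CACCTG. RefSeq promoters (GRCm38.p6) were matched by symbol for 5 of the 8 genes. Each is the 250 bases before the start that RefSeq gives, read 5′ to 3′ on the gene's strand, and capitals mark CACCTG on either strand, which reads CAGGTG when it lies on the opposite one. That start can differ from the end of the GENCODE gene span given with each gene below, so the Cd22 and Blnk windows lie within those spans and the Cd79a and Gcsam windows run past their first base. The windows are chr1:170927584-170927833 on the minus strand for Fcrla, chr7:30879029-30879278 on the minus strand for Cd22, chr16:45610190-45610439 on the plus strand for Gcsam, chr19:40994222-40994471 on the minus strand for Blnk and chr7:24897247-24897496 on the plus strand for Cd79a. The first 4 belong to genes that were higher in KO and the last to a gene that was not.
Fcrla: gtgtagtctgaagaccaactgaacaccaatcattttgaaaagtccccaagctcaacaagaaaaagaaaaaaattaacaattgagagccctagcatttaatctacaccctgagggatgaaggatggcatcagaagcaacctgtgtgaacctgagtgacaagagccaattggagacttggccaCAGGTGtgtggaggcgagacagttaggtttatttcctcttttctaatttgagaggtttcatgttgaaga
Cd22: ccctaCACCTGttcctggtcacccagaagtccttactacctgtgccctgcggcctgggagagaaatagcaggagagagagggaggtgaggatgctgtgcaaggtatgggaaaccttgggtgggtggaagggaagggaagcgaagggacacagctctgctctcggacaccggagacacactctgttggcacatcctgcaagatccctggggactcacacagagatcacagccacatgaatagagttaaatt
Gcsam: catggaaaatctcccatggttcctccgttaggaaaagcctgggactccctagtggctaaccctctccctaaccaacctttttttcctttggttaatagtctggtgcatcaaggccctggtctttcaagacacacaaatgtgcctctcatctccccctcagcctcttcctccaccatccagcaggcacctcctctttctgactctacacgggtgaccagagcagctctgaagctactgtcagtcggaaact
Blnk: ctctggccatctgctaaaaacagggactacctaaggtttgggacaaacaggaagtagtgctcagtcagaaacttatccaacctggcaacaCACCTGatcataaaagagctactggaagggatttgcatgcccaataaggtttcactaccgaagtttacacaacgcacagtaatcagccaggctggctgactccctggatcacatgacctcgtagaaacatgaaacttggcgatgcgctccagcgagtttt
Cd79a: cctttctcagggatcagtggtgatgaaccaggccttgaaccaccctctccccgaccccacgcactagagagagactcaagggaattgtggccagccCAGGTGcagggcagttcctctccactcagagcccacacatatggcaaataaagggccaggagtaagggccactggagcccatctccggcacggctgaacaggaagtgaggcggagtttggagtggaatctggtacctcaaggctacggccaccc

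CACCTG began at position -69 in Fcrla, -245 in Cd22, -160 in Blnk and -154 in Cd79a, counted back from the start, and was not among the letters of the Gcsam window. It occurred in 17.22% of 32851 RefSeq promoter windows of the same length. Ms4a1, Ighm and Cd79b had no matched window, and a link between these letters and the levels in KO was not tested. The wider E-box CANNTG, which includes CACCTG, occurred in all 5 windows and in 66.22% of all windows. The octamer ATGCAAAT, known from immunoglobulin promoters, occurred at -130 in Blnk (1.6% of all windows), interferon response letters, GAAA and GAAA 2 bases apart, at -192 in Fcrla (2.98%), and EBF letters, TCCC and GGGA 2 bases apart, at -49 in Cd22 (0.78%). The ETS letters GAGGAAGT were in none of the 5 windows and in 2.44% of all. Both strands were searched, none of these 4 overlaps CACCTG in the windows shown, and a match is a description of letters and not of binding.

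Ms4a1 (chromosome 19, 11249675 to 11266241, minus strand, GRCm38) encodes CD20. The KO libraries had it at 72.9, 80.3 and 72.0 CPM, the WT libraries at 0.223, 0 and 0.0940 CPM and the Mixed libraries at 0, 0.0911 and 0.144 CPM. Every KO library was far above every other library. Summed over 3 libraries each, these levels are 4834 KO counts, 6 WT counts and 5 Mixed counts. The ratio of KO to WT was 767 (exact 95% interval 352 to 2092, counting error only), and the fitted log2 change was 9.50 (SE 0.32). In bone marrow the gene was at 0.495, 0.559 and 1.39 CPM, 49 counts in all, so KO was 91.2 times bone marrow (69 to 123). The antisense gene 4930526L06Rik spans Ms4a1 and had 3 counts in BM 1 and 0 in the other 11 libraries.

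Gcsam (chromosome 16, 45610380 to 45622867, plus strand) reached 82.0, 76.2 and 58.8 CPM in KO. The WT libraries had 0.0558, 0.134 and 0.0940 CPM, the Mixed libraries 0.0457, 0 and 0.0962 CPM, and the bone marrow libraries no count at all. The KO libraries again stood clear of the other 9. The 4646 counts of Gcsam in KO were 737 times the 6 of WT (338 to 2010) and 1547 times the 3 of Mixed (529 to 7504) after scaling. Against bone marrow KO was at least 479-fold higher, taking a floor of 3 counts per library. Ms4a1 and Gcsam therefore had like levels in KO and like low counts in WT, and differed in bone marrow, where Ms4a1 had a few counts and Gcsam had none.

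Fcrla and Cd22 formed a lower tier. Fcrla (chromosome 1, 170917576 to 170927583, minus strand) was at 10.2, 9.57 and 10.2 CPM in KO libraries, 0.0558, 0.0894 and 0.282 CPM in WT, 0.0915, 0 and 0.144 CPM in Mixed, and in bone marrow at 0.495, 0.559 and 0.744 CPM. Its 648 counts in KO against 9 in WT gave a ratio of 68.6 (35.9 to 151), and against 36 in bone marrow a ratio of 16.6 (11.9 to 24). The processed pseudogene Gm2962 lies within Fcrla on the same strand and had 1 to 11 counts per library, without a higher level in KO (mean 6.33 counts in KO and 8 in WT).

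Cd22 (chromosome 7, 30865402 to 30880342, minus strand) was at 8.96, 7.57 and 12.4 CPM in KO and did not start from the counting limit in the other groups. It was at 1.45, 1.30 and 0.282 CPM in WT, 0.732, 1.00 and 0.241 CPM in Mixed, and in bone marrow at 0.879, 1.44 and 0.595 CPM. The KO libraries were above all others. The fitted difference between KO and WT was 9.64-fold (log2 3.27, SE 0.46), close to the ratio of KO to bone marrow of 9.95 (7.61 to 13.2). An antisense gene within Cd22, Gm29439, had 2 counts in KO 3 and 0 elsewhere.

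Ighm (chromosome 12, 113418558 to 113422730, minus strand) encodes the constant part of the mu heavy chain in the antibody and receptor. It was at 291, 358 and 368 CPM in KO libraries, 56.2, 66.2 and 75.5 CPM in WT, 104, 80.5 and 90.9 CPM in Mixed, and in bone marrow at 910.5, 1046 and 953 CPM. No 2 groups overlapped. The fitted level in KO was 5.13-fold that in WT (log2 2.36, SE 0.13), while KO was below bone marrow by a log2 difference of -1.52. The bone marrow values were the highest for this gene, unlike Ms4a1, Gcsam, Fcrla and Cd22, for which KO was highest.

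Blnk (chromosome 19, 40928927 to 40994535, minus strand) was at 11.3, 9.04 and 10.4 CPM in KO libraries, 3.96, 3.08 and 4.09 CPM in WT, 2.29, 2.96 and 2.17 CPM in Mixed, and in bone marrow at 1.76, 0.746 and 1.54 CPM. The KO libraries did not overlap the others, and bone marrow was lowest. The fitted difference was 2.77-fold between KO and WT (log2 1.47, SE 0.22). Blnk was thus measurable in all 12 libraries, with a level in WT well above those of Ms4a1 and Gcsam.

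Cd79a and Cd79b encode the core signalling chains. Cd79a (chromosome 7, 24897381 to 24902197, plus strand) was at 0.273, 0.473 and 0.296 CPM in KO libraries, 0.223, 0.447 and 0.329 CPM in WT and 0.595, 0.410 and 0.0962 CPM in Mixed. These 3 groups overlapped throughout. With 22 counts in KO and 21 in WT, the ratio was 0.998 (0.523 to 1.91), so a change of up to 1.91-fold in either direction lies within the counting interval. Bone marrow was above the fetal groups at 1.48, 1.54 and 2.43 CPM.

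Cd79b (chromosome 11, 106311341 to 106314762, minus strand) was well expressed in every library, at 56.3, 63.1 and 65.6 CPM in KO libraries, 79.2, 85.7 and 86.9 CPM in WT, 82.2, 78.9 and 80.6 CPM in Mixed, and in bone marrow at 36.4, 39.4 and 38.7 CPM. KO was below both WT and Mixed with no overlap, by a fitted log2 difference of -0.45 (SE 0.07) from WT and -0.39 from Mixed, and was above bone marrow by 0.69. WT and Mixed differed by a log2 value of -0.06 (SE 0.07), which is within its error. Cd79b and Cd79a, whose proteins are known to need each other for the receptor to reach the surface of a B cell, had levels per transcript length that were far apart (58.3 and 0.293 TPM in KO, 89.8 and 0.317 TPM in WT). The interval of the Cd79a ratio includes the KO to WT ratio of Cd79b, 0.733, so the pair is not shown to differ in that ratio.

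**Figure D1:**
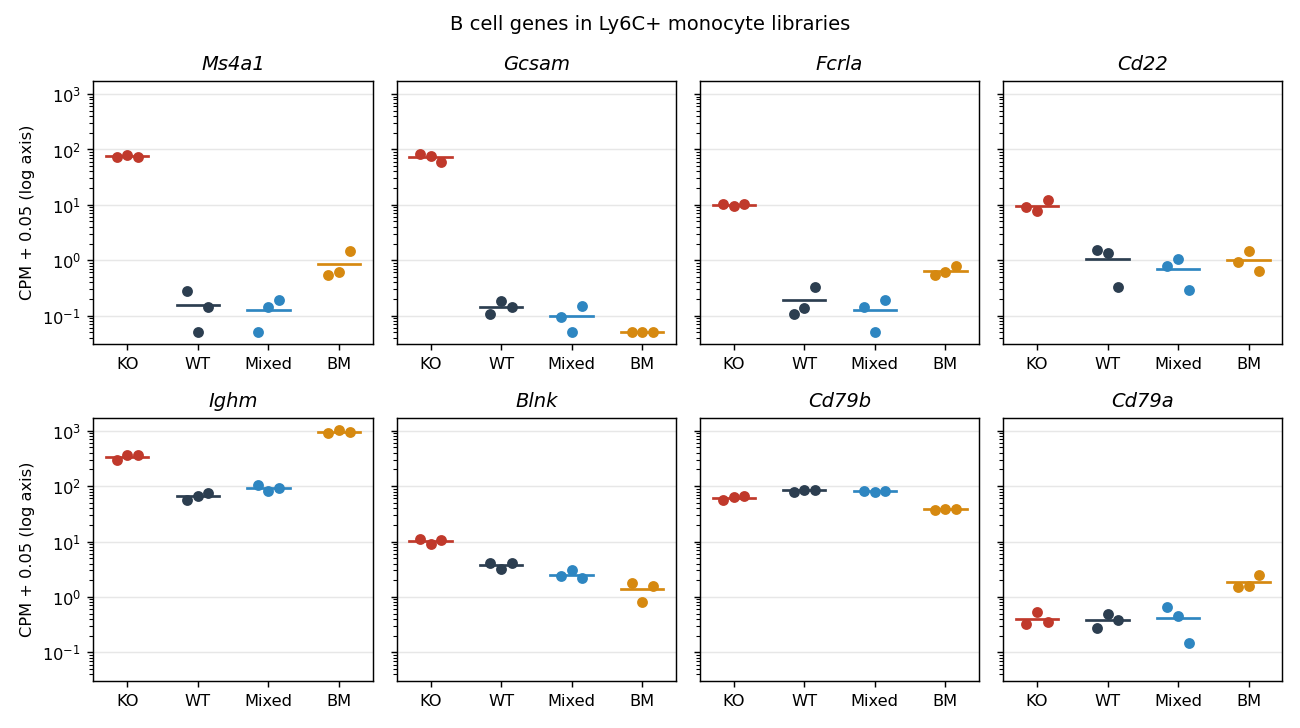
CPM plus 0.05 on a log axis for each of the 8 genes, with 1 point per library and a line at the mean of the 3 libraries of the KO, WT, Mixed and BM groups. The 3 KO points of Ms4a1 and Gcsam lie above 58 CPM with every other library below 1.5 CPM, while the KO points of Cd79b lie between 56.3 and 65.6 CPM, below those of WT, and the KO points of Cd79a lie among those of WT.

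By a fitted difference of at least 2-fold, 6 of the 8 genes were higher in KO than in WT. Of all 14618 genes tested, 7.48% were that much higher in KO. Because KO and WT levels chose the 8, nothing is read from that count. All 8 passed the filter on low counts. Gcsam did so through the KO libraries alone and Cd79a through the bone marrow libraries alone, the groups where they were high, and Ms4a1 and Fcrla passed with KO or with bone marrow libraries. The KO libraries share their embryonic day with WT 1 alone, so day and genotype overlap in part. In WT 1 itself Ms4a1 was at 0.223 CPM, Gcsam at 0.0558, Fcrla at 0.0558, Cd22 at 1.45, Ighm at 56.2 and Blnk at 3.96 CPM, each below every KO library. The fitted change of the genes with few WT counts depended on single WT libraries. For Ms4a1 the log2 change was 10.50 without WT 1 and 8.88 without WT 2, and for Fcrla it was 6.96 without WT 3. With embryonic day as a covariate, which in effect sets KO against WT 1, the log2 change was 8.37 for Ms4a1, 10.21 for Gcsam and 7.36 for Fcrla.

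Levels were compared between genes per transcript length, on the deposited TPM values (transcripts relative to length and library). In WT monocytes Cd79b came first at 89.8 ± 3.37 TPM (SD, n = 3), followed by Ighm at 55.4 ± 7.36 and Blnk at 2.49 ± 0.404 TPM. Cd22, Fcrla and Cd79a followed at 0.543, 0.330 and 0.317 TPM with overlapping libraries, and Gcsam and Ms4a1 came last at 0.0543 and 0.0477 TPM, also overlapping. The order in Mixed began the same way, except that the libraries of Cd79b (86.7 ± 2.13 TPM) and Ighm (78.5 ± 10.8 TPM) overlapped.

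In KO monocytes Ighm was first at 252.7 ± 29.7 TPM and Cd79b second at 58.3 ± 4.72 TPM. Gcsam (36.2 ± 5.64 TPM) and Ms4a1 (30.4 ± 1.02 TPM) came next with overlapping libraries, and then Fcrla at 9.80 ± 1.34, Blnk at 6.10 ± 0.763, Cd22 at 4.07 ± 1.22 and Cd79a at 0.293 ± 0.0852 TPM, with no overlap between neighbours. Ms4a1 and Gcsam thus moved from the last places in WT to those just below Cd79b in KO, and Cd79a, which shared the middle places with Cd22 and Fcrla in WT, was last. In bone marrow the order was Ighm (861.7 ± 54.2 TPM), Cd79b (43.1 ± 2.10) and Cd79a (1.82 ± 0.509 TPM), with Blnk, Fcrla, Ms4a1 and Cd22 overlapping in that order between 0.821 and 0.370 TPM, and Gcsam listed at 0.

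**Figure D2:**
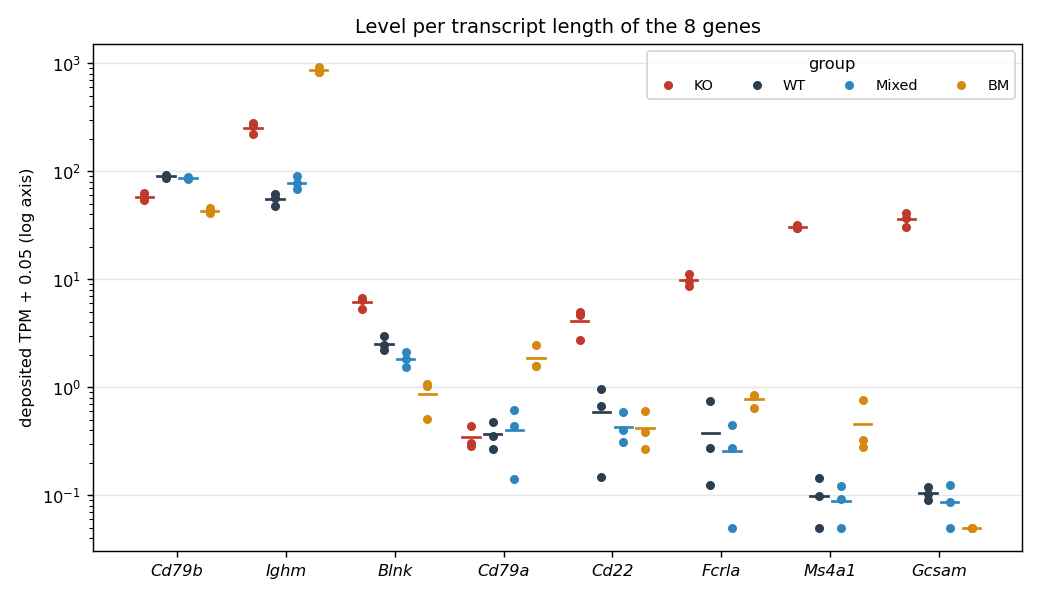
Deposited TPM plus 0.05 on a log axis for the 8 genes, with 1 point per library and a line at each group's mean, from Cd79b on the left to Gcsam on the right. Ms4a1 and Gcsam reach 30.4 and 36.2 TPM in KO and stay under 1 TPM in the other groups, whereas Cd79b lies between 43.1 and 89.8 TPM in the group means.

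Ratios within a library do not depend on the scaling between libraries. The TPM ratio of Ms4a1 to Cd79b was 0.472 to 0.554 in the KO libraries and 0 to 0.00109 in WT. That of Ighm to Cd79b was 4.09 to 4.50 in KO, 0.552 to 0.688 in WT, 0.802 to 1.01 in Mixed and 19.8 to 20.3 in bone marrow. That of Cd79b to its partner Cd79a was 148 to 248 in KO, 215 to 399 in WT and 17.6 to 29.7 in bone marrow. Ms4a1 exceeded Cd79a by 80.9 to 128 times in KO and lay below it in bone marrow, at a ratio of 0.152 to 0.296.

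Bone marrow and Mixed fetal liver monocytes were then compared, since the genes were selected on their KO and WT levels. The fit and its filter used all 12 libraries, and earlier results of these data were known when the genes were chosen. They differ in tissue and in age together, and these cannot be told apart. Ighm was 3.40 log2 units higher in bone marrow (SE 0.14, adjusted p = 2.54e-09, edgeR's quasi-likelihood test adjusted by Benjamini-Hochberg over all genes), Ms4a1 3.31 higher (SE 0.67, adjusted p = 0.000482), Fcrla 2.86 higher (SE 0.58, adjusted p = 0.000196) and Cd79a 2.28 higher (SE 0.49, adjusted p = 0.000417). Cd79a entered the test only through bone marrow, where it was high, so its call was favoured in advance and is given as a description. Ms4a1 and Fcrla passed the filter through KO or bone marrow libraries, not through Mixed, and their calls are also given as a description. Cd79b was lower by a log2 value of -1.08 (SE 0.07, adjusted p = 1.48e-11) and Blnk by -0.89 (SE 0.26, adjusted p = 0.00644). Cd22 missed the threshold (log2 0.56, SE 0.56, adjusted p = 0.418), and Gcsam, with 0 counts in bone marrow and 3 in Mixed, was at or under the counting floor in both. Of the 8 genes 6 were called, 4 higher and 2 lower; of all genes tested 58.4% were called, 29.5% higher and 28.9% lower, so nothing is read from the count. Each call had the same direction in all 3 bone marrow libraries relative to all 3 Mixed libraries. The change of Ms4a1 rested on few counts and was 2.68 without BM 3 (adjusted p = 0.00148) and 3.996 without Mixed 3 (adjusted p = 0.00114), and that of Fcrla was 3.55 without Mixed 3 (adjusted p = 0.000264).

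B cells are known by a set of other lineage genes, and the values of 23 such markers are given beside the 8 genes. Their summed level was 33.3 to 45.6 CPM in KO libraries, 23.4 to 36.5 in WT, 33.6 to 33.9 in Mixed and 26.1 to 28.7 in bone marrow. Most of that sum was a single gene, Fcrl1, an Fc receptor-like gene, at 26.4, 36.0 and 39.9 CPM in KO libraries and 26.9, 21.7 and 34.3 CPM in WT (not called, log2 0.30, adjusted p = 0.136). Without Fcrl1 the other 22 markers summed to 4.36 to 6.91 CPM in KO libraries, 1.70 to 2.21 in WT, 1.83 to 2.37 in Mixed and 9.46 to 11.4 in bone marrow. The 22 markers together thus took fewer counts than Ms4a1 or Gcsam alone in each KO library. No count was found in any KO library for 9 of the 23, namely Pou2af1, Igkc, Iglc1, Iglc2, Iglc3, Vpreb2, Igll1, Rag1 and Dntt. In bone marrow only Vpreb2 had none.

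Ebf1, Pax5 and Igkc, which define the lineage, were at or near 0 in KO. Other markers were not, with Fcrl1, Tnfrsf13c and Ighd at means of 34.1, 3.2 and 1.3 CPM in KO. Ebf1, a transcription factor that specifies B cells, was at 0.182, 0.105 and 0 CPM in KO libraries and had no count in WT. It was not called between KO and WT (log2 4.05, adjusted p = 0.0553), and was at 1.26, 1.17 and 0.843 CPM in bone marrow. Pax5, which maintains B cell identity, was at no more than 0.198 CPM in any library. Igkc, the kappa light chain constant gene, had no count in KO or WT and was at 2.36, 2.28 and 1.74 CPM in bone marrow. Ebf1, Pax5, Igkc, Ighd and Clnk were chosen with their values in view.

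Of the 23 lineage markers 7 could be tested between KO and WT, and 2 were higher and none lower in KO, with a median log2 change of 0.74. Over all genes 38.1% were called, 18.2% higher and 19.9% lower, with a median log2 change of -0.03. Tnfrsf13c, which encodes the receptor for the B cell survival factor BAFF, was at 3.82, 2.47 and 3.30 CPM in KO libraries and 0.335, 0.670 and 0.752 CPM in WT, 5.35-fold higher (adjusted p = 7.94e-05). Ighd, the delta heavy chain, was at 1.64, 0.999 and 1.27 CPM in KO libraries and 0.670, 0.134 and 0.470 CPM in WT (log2 1.64, adjusted p = 0.00866), a call that was lost without WT 2 (adjusted p = 0.0637) and with embryonic day as a covariate (adjusted p = 0.315). Between bone marrow and Mixed, 5 of the same 7, Ebf1, Igkc, Vpreb3 and Ighd among them, were higher and 1, Fcrl1, lower in bone marrow, with a median log2 change of 4.01 against 0.01 over all genes. Among all genes 29.5% were higher and 28.9% lower. Ebf1, Igkc and Vpreb3, the last named after its value was seen, entered the test through bone marrow alone, where they were high. Their calls and that median are therefore given as a description.

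**Figure D3:**
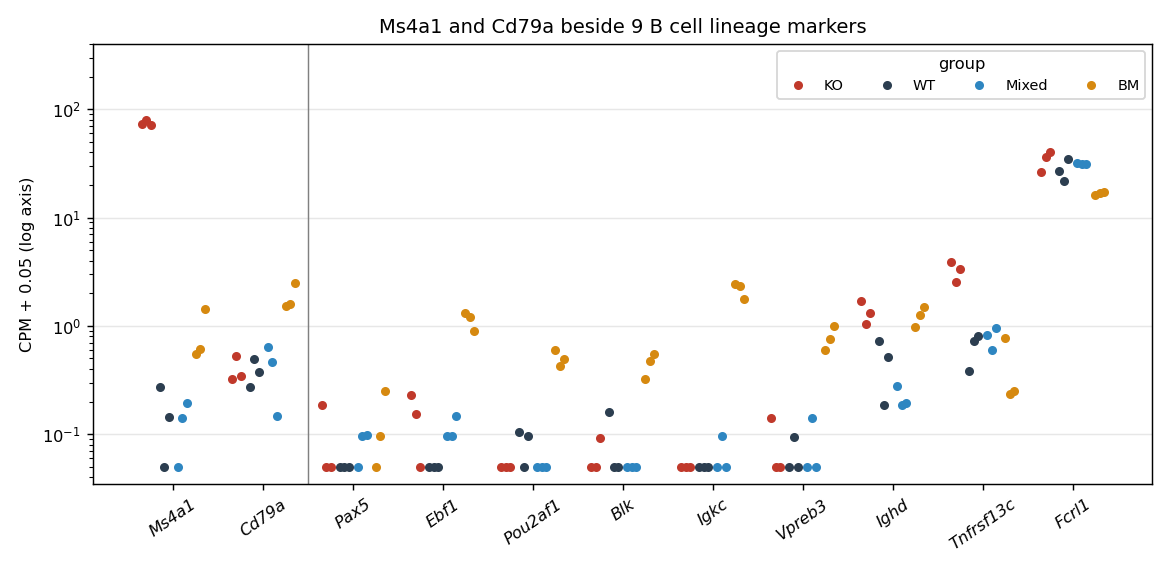
CPM plus 0.05 on a log axis for Ms4a1 and Cd79a, left of the vertical line, and 9 of the 23 B cell lineage markers, with 1 point per library coloured by group. In KO Ms4a1 lies above 70 CPM while Pax5, Ebf1, Pou2af1, Blk, Igkc and Vpreb3 lie under 0.2 CPM. In bone marrow Ebf1, Igkc and Cd79a lie near 1 to 2 CPM.

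A heavy chain constant gene can be transcribed without a rearranged variable segment, so the variable segments were counted too. The 185 heavy chain V segments held 11, 4 and 9 counts in KO, 5, 6 and 7 in WT, 7, 7 and 6 in Mixed and 27, 32 and 36 in bone marrow. The 21898 Ighm counts of KO therefore stood beside 24 V segment counts in all, and the 58231 of bone marrow beside 95. The 160 kappa V segments had no count in KO, 0, 3 and 5 in WT, 2, 2 and 0 in Mixed and 16, 15 and 25 in bone marrow, and the 3 lambda V segments had 8, 18 and 26 counts in bone marrow and none in the fetal groups. Some V segments closely resemble others, and the counting can split or lose reads that cross a rearranged junction, so these counts are uncertain. The share of Ighm counts that came from B cells was not tested.

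Downstream of the receptor, all 26 listed signalling genes were expressed and tested between KO and WT. Of these 16 were higher and 5 lower in KO, with a median log2 change of 0.31, against 18.2% higher and 19.9% lower among all genes. Rasgrp3, a diacylglycerol-activated exchange factor for Ras, was at 21.1, 15.7 and 16.1 CPM in KO libraries and 0.223, 0.402 and 0.752 CPM in WT, 37.2-fold higher (adjusted p = 3.64e-12). Its KO level was far above Mixed and bone marrow as well, as that of Ms4a1 was, with 0.389 ± 0.106 CPM in Mixed and 0.395 ± 0.188 CPM in bone marrow.

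Pik3ap1, an adaptor that recruits phosphoinositide 3-kinase, was 3.10-fold higher (adjusted p = 2.96e-12) and Prkcb, a protein kinase C that acts below the receptor in B cells, 2.24-fold higher (adjusted p = 9.64e-09). The kinases Syk, Lyn and Btk and the phospholipase Plcg2, which monocytes and B cells share and which are given for their place next to the receptor, with their values in view, differed by at most 1.17-fold. Syk was at 136 ± 0.440 CPM in KO libraries and 128 ± 4.64 CPM in WT and was not called (adjusted p = 0.274), nor was Plcg2 (205 ± 5.32 and 198 ± 1.65 CPM, adjusted p = 0.460). Lyn was 1.17-fold higher (adjusted p = 0.000719), and Btk 1.11-fold lower (adjusted p = 0.0499). The 5 lower genes, named here after their values were seen, were Btk, Cd81, Malt1, Fcgr2b and Bank1, by 1.11 to 1.52-fold. Malt1 encodes a protease of the pathway to NF-kappa-B, Fcgr2b an inhibitory Fc receptor, Bank1 a B cell scaffold and Cd81 a tetraspanin.

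**Figure D4:**
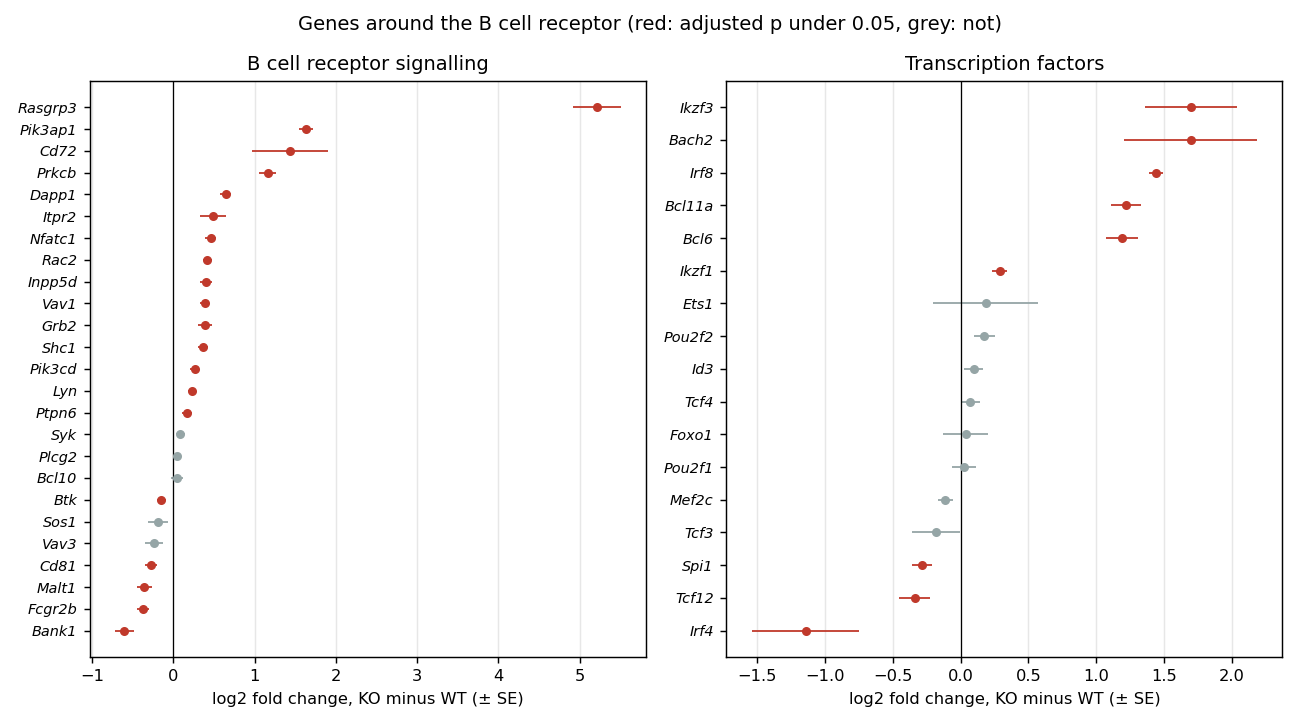
Log2 fold change of KO minus WT with its SE, from the fit to all 12 libraries, for receptor signalling genes (left) and the 17 tested transcription factors (right), in red where the adjusted p was under 0.05. Rasgrp3 lies at 5.22 and Pik3ap1 at 1.63, and Syk and Plcg2 lie near 0.

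Of 20 transcription factors of B cells and related lineages, 17 were tested, and 6 were higher and 3 lower in KO, with a median log2 change of 0.10. Among all genes 18.2% were higher and 19.9% lower. Irf8, a factor of both B cells and dendritic cells, was at 823, 805 and 728 CPM in KO libraries and 287, 282 and 298 CPM in WT, 2.71-fold higher (adjusted p = 2.23e-15). Bcl11a, needed for early lymphoid cells, was 2.33-fold higher (34.6 ± 3.29 and 14.8 ± 0.483 CPM, adjusted p = 9.83e-09), and Bcl6, a repressor of germinal centre B cells, 2.28-fold higher (29.8 ± 2.44 and 13.1 ± 2.28 CPM, adjusted p = 4.02e-08). Irf4 was at 0.682, 0.158 and 0.887 CPM in KO libraries and 1.73, 1.34 and 0.940 CPM in WT, a 2.21-fold lower level (adjusted p = 0.0288) that lost its call in 5 of 19 alternative settings, among them without KO 2 (adjusted p = 0.1115), WT 1 (0.1165) or WT 2 (0.0716). The other 2 lower factors, named after their values were seen, were Spi1 and Tcf12.

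The same lists were also read between bone marrow and Mixed. Of the 26 signalling genes 16 were higher and 4 lower in bone marrow, with a median log2 change of 0.36. Of the 17 transcription factors 9 were higher and 3 lower. Among all genes 29.5% were higher and 28.9% lower in bone marrow. Rasgrp3 was not called there, with a log2 change of 0.05 (adjusted p = 0.938). Irf8 was 1.62-fold higher in bone marrow than in Mixed (adjusted p = 1.41e-10), with 540 ± 3.33 CPM in bone marrow, and Irf4 was 9.20-fold higher (adjusted p = 1.29e-08).

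Of 13 plasma cell genes 4 were tested between KO and WT, with 1 higher and 1 lower. Since 18.2% of all genes were higher and 19.9% lower, nothing is read from these counts. Prdm1, the factor that drives plasma cell formation, was 1.59-fold lower in KO (3.67 ± 0.740 and 5.81 ± 0.562 CPM, adjusted p = 0.0159), a call lost without KO 1, KO 3 or WT 3 (adjusted p = 0.0576, 0.0698 and 0.0560) and with embryonic day as a covariate (0.207). Xbp1, a factor of the secretory cell, was 1.17-fold higher (adjusted p = 0.0314), a call lost without KO 1, KO 2, WT 2 or WT 3 (adjusted p = 0.0815 to 0.1475) and with embryonic day as a covariate (0.385). Igha, Ighg1 and Ighe, constant genes of other heavy chain classes, had no count in any of the 12 libraries. The other untested genes are named after their values were seen. Ighg2b had 1, 0 and 7 counts in KO libraries and 0, 1 and 0 in WT. Ighg2c had 2, 0 and 0 and Ighg3 0, 2 and 3 in KO, with none in WT. Mzb1 had 19, 7 and 19 in KO and 0, 3 and 2 in WT. Tnfrsf17 had 7, 9 and 17 in KO and 1, 0 and 1 in WT, and Jchain 0, 2 and 2 in KO and 0, 2 and 4 in WT.

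The relatives of Cd22 and Fcrla were looked at in the same comparison. Of 7 other Siglec genes 6 were tested, and 3 were higher and 2 lower in KO. With 18.2% of all genes higher and 19.9% lower, nothing is read from these counts. Siglecg, which like Cd22 restrains B cell receptor signals, was 1.81-fold higher (34.2 ± 4.59 and 18.9 ± 3.07 CPM, adjusted p = 2.96e-06), with bone marrow at 32.9 ± 2.68 CPM. Siglecf was 1.71-fold higher (adjusted p = 0.00536), Cd33 1.496-fold higher (adjusted p = 0.000451) and Siglece 1.73-fold lower (adjusted p = 9.04e-06). Mag, named after its value was seen, was the other lower one, at 0.0829 CPM in KO and 0.542 CPM in WT on average. These folds were smaller than the 9.64 of Cd22, a difference that was not tested. Of 8 Fc receptor-like genes only Fcrl1 and Fcrls passed the filter, and Fcrls, a scavenger receptor-like member, was 4.85-fold lower in KO (2.05, 1.16 and 0.972 CPM against 5.36, 4.92 and 10.01 CPM, adjusted p = 2.17e-05), opposite in direction to Fcrla.

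Monocytes signal through other ITAM chains and adaptors, and 8 of 13 of these were tested, with 3 higher and 1 lower in KO. Beside 18.2% of all genes higher and 19.9% lower, nothing is read from these counts. Tyrobp (DAP12), the ITAM chain of many myeloid receptors, named after its value was seen, was at 505 ± 16.6 CPM in KO libraries and 523 ± 53.0 CPM in WT and was not called (adjusted p = 0.548). Fcer1g, the Fc receptor gamma chain, was 1.25-fold lower (adjusted p = 2.42e-05). Lat2, a transmembrane adaptor of B cells and myeloid cells, was 2.49-fold higher (90.8 ± 11.2 and 36.5 ± 1.33 CPM, adjusted p = 1.84e-11), and Pag1, an adaptor that holds the kinase CSK at the membrane, 1.83-fold higher (adjusted p = 4.78e-08). Clnk, a relative of Blnk, was at 1.41, 1.63 and 1.06 CPM in KO and had no count in WT or Mixed. With at most 2 counts in a bone marrow library, Clnk entered the test through KO alone. It is among the 3 higher, and its call is given as a description.

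Markers of other cells were read in the same comparison, in which 18.2% of all genes were higher and 19.9% lower in KO. All 10 markers of type 1 conventional dendritic cells were tested and 9 were higher in KO and none lower, with a median log2 change of 3.10. Their sum was 539 to 593 CPM in KO libraries, 103 to 125 in WT, 111 to 132 in Mixed and 135 to 147 in bone marrow. Batf3, a factor these cells require, was 13.4-fold higher (adjusted p = 9.27e-16), Flt3, the receptor of a dendritic cell growth factor, 10.2-fold higher (adjusted p = 1.45e-15) and Cd24a 9.25-fold higher (adjusted p = 1.71e-05). Clec9a, a receptor for dead cells, was at 23.2, 20.1 and 18.3 CPM in KO libraries and 0.0558, 0 and 0.0940 CPM in WT. Of 10 neutrophil markers 6 were higher and none lower, with sums of 10900 to 13640 CPM in KO libraries and 4488 to 6320 in WT.

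Of 11 plasmacytoid dendritic cell markers, which share several genes with B cells, 6 were tested, with 2 higher (Bst2, 1.73-fold, adjusted p = 1.16e-06, and Cox6a2, named after its value was seen) and 1 lower (Runx2, 2.09-fold, adjusted p = 0.000561). Among all genes 18.2% were higher and 19.9% lower. Cox6a2 had 59, 36 and 52 counts in KO and at most 8 in any other library. It entered the test through KO alone, so its call is given as a description. The sum of the 11 markers was 132 to 163 CPM in KO libraries, 104 to 108 in WT, 93.9 to 95.9 in Mixed and 122 to 126 in bone marrow. The defining gene of these cells, Siglech, named after its value was seen, was at 0.0909, 0.105 and 0 CPM in KO. Of the 11 monocyte markers 4 were higher and 6 lower in KO, with Ly6c2 2.91-fold higher (1531 ± 156 and 525.6 ± 31.1 CPM, adjusted p = 9.99e-15) and F13a1 6.21-fold lower (adjusted p = 2.19e-15). No T or NK cell marker passed the filter, and their sum was at most 1.05 CPM in KO, and none of 8 erythroid markers was called. The part of dendritic cells or neutrophils in the levels of the 8 genes was not tested.

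The genes patterned most like Ms4a1 and Cd79b over the 12 libraries were named by the smallest root mean square difference of centred log2 CPM among 9992 genes. For Ms4a1 they were Cd6 (1.09), Clec9a (1.16), Tdgf1 (1.17), P2ry10 (1.48) and Cdh17 (1.52 log2 units). Cd6 was at 13.6 ± 1.39 CPM in KO libraries and 0.0856 CPM in WT, Tdgf1 at 12.7 ± 3.09 and 0.0186 CPM, P2ry10 at 23.8 ± 3.62 and 0.340 CPM, and Cdh17 at 28.4 ± 5.14 and 0.154 CPM. All had a KO level far above the other 3 groups, and none is in the lists of B cell genes used here. For Cd79b the nearest were AI506816 (0.065), Mrpl17 (0.084), Polr2h (0.085), Ddx56 (0.085) and Ipo5 (0.085), with KO means below those of WT and Mixed and the lowest means in bone marrow. Mrpl17, for one, was at 120 ± 1.28 CPM in KO libraries, 152 ± 7.58 in WT, 137 ± 2.26 in Mixed and 68.7 ± 2.61 CPM in bone marrow.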

How the data were processed

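RNA of Ly6C+ monocytes was sequenced as 12 libraries in 4 groups of 3, grouped by title, with a SMARTer Ultra Low kit that does not mark strand, per the labels' protocols. The authors deposited estimated counts per gene and TPM values in tables of the whole series. The tools named, per the submitters' processing notes, include Salmon, STAR, featureCounts, Subread and DRAGEN, with no role or order, and the build is mm10. The count table had 55774 entries, of which 287 repeated an Ensembl gene and were removed, and 28.533% of the nonzero counts were not whole (tolerance 1e-06), so counts were rounded before testing.

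From the counts, genes were kept by filterByExpr (minimum count 10, minimum total 15), which left 14618 and removed 40869. Libraries were scaled by TMM and fitted together with edgeR's robust quasi-likelihood model (common biological coefficient of variation 0.0917), two-sided, with Benjamini-Hochberg adjustment and a threshold of 0.05. CPM were computed from the counts on TMM-scaled sizes. TPM, as deposited, served to compare levels between genes and, with 0.1 added, as an alternative. Intervals on ratios of summed counts are exact at 95% and, like the floor of 3 counts per library, cover counting error only. Libraries of 17384911 to 24473471 counts put that floor at 0.127 to 0.167 CPM. Software was edgeR 4.0.16, DESeq2 1.42.0 and limma 3.58.1 under R 4.3.3.

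The 8 genes, the gene lists and the tests were chosen with earlier results of these data known. For each list, up to 4 genes called between KO and WT with the largest change and a mean of at least 1 log2 CPM were named, or the 2 of highest level where none was. Some listed genes are counted but not reported by name here. Genes outside that rule are said to be named after their values were seen, and Zeb2 and Maf are given because the title names them. The genes most like Ms4a1 and Cd79b were taken among tested genes with a mean of at least 1 log2 CPM, leaving out predicted genes and pseudogenes and using a prior count of 2. Positions are from GENCODE for GRCm38, and promoters from RefSeq (GRCm38.p6). The alternatives were RLE scaling, no filter or a stricter filter on low counts, each library left out, a replicate block, the 2 compared groups alone, embryonic day as a covariate, DESeq2 and TPM. Promoters were matched for 5 of the 8 genes, and protein sequences were not analysed here.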

Additional observations from a re-analysis of the deposited data

How the results depend on the processing

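In all 19 alternatives that compared KO with WT, 6 of the genes were at least 2-fold higher in KO, against 7.48% of all genes in the main fit. In all 18 that compared bone marrow with Mixed 6 were called, against 58.4% of all genes in the main fit. None of these genes reversed, and nothing is read from the counts. Cd79a was filtered out between KO and WT alone and with embryonic day as a covariate, and Gcsam between bone marrow and Mixed alone. Calls between KO and WT numbered 5565 over all genes and 3715 with embryonic day as a covariate, and those between bone marrow and Mixed 8535, with a range of 7874 to 8722. Of the B cell lineage markers 2 were called between KO and WT, 1 to 3 when a library was left out, and 1 with embryonic day as a covariate; there the estimate rests on WT 1. The replicate numbers did not pair the samples: same-numbered libraries of 2 groups deviated together with correlations of -0.035 to 0.069 over 18 pairs. With a replicate block 5525 genes were called between KO and WT and 8479 between bone marrow and Mixed. Adding 0.1 to TPM gave log2 changes between KO and WT of 7.74 for Ms4a1, 7.87 for Gcsam and 4.80 for Fcrla, since the added value sets the lower level. For bone marrow and Mixed, adjusted p ran from 3.73e-10 to 0.00314 for Ms4a1, 5.62e-06 to 0.00182 for Fcrla, 5.37e-05 to 0.00513 for Cd79a, 0.00144 to 0.0415 for Blnk and 0.229 to 0.908 for Cd22. Depth limits the WT and Mixed levels of Gcsam, Ms4a1, Fcrla and Cd79a, which rest on 3 to 24 counts per group, the KO level of Cd79a (22 counts) and the bone marrow level of Gcsam (0 counts).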
